A study of Homo sapiens with 6 samples.

Results

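Enzymes that hydroxylate and crosslink collagen were examined in A431 squamous carcinoma cells with and without CD109, a GPI-anchored surface protein. The genes were chosen by name, as 5 lysyl oxidases (LOX, LOXL1, LOXL2, LOXL3, LOXL4), 3 lysyl hydroxylases (PLOD1, PLOD2, PLOD3) and 2 prolyl 4-hydroxylase alpha chains (P4HA1, P4HA2). Of these 10 genes, 9 were measured, by 1 probe set each, among 17687 genes of the Clariom S human array, and LOXL2 was not analysed here. One array was hybridized for each of 3 CD109-KO clones (26, 32 and 180) and 3 parental A431 samples (5, 2 and 6), which the labels call wildtype. Each CD109-KO clone grew from 1 sorted CD109-negative cell after CRISPR/Cas9 editing with one of a pair of guide RNAs. The labels leave unsaid which guide made which clone. They also do not say what the parental numbers stand for, and p-values therefore reflect only how far these samples differ, which may be technical. Both groups are described as the A431 line, an established human epidermoid carcinoma line with amplified EGFR, grown in complete medium. EGFR copy number was not measured here, and the EGFR signal differed between the groups, as given below.

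Collagen chains are modified in the endoplasmic reticulum before they are secreted. Prolyl 4-hydroxylase, a tetramer of alpha chains with P4HB, makes the hydroxyproline that keeps the triple helix stable, and lysyl hydroxylases make the hydroxylysine that carries sugars and forms the stronger crosslinks. Both need iron, oxygen, 2-oxoglutarate and ascorbate. Outside the cell the copper enzymes of the lysyl oxidase family oxidize lysines of collagen and elastin, and the resulting aldehydes join neighbouring chains. LOX, PLOD2, P4HA1 and P4HA2 are known targets of hypoxia-inducible factor (HIF), and lysyl oxidases are usually made by fibroblasts and other matrix-producing cells.

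All 4 measured lysyl oxidases had a higher signal in CD109-KO clones, 3 of the 5 hydroxylases had a lower one, and 2 hydroxylases did not pass the test. The test was limma's, and a call needed an adjusted p under 0.01 together with a fold change of 2 or more. These 7 of 9 genes stood beside 63.1% of all genes tested that were called in either direction, 36.2% higher and 26.8% lower, so that a call does not by itself set the enzymes apart from other genes. In 8 of the 9 the groups did not overlap, 4 with the clones higher and 4 with the clones lower, which was so for 80.7% of all genes, 48.9% with the clones higher and 31.8% lower. The median log2 fold change was 2.16 over the 4 lysyl oxidases and 0.51 over all genes. It was -1.97 over the 3 lysyl hydroxylases and -2.65 over the 2 prolyl 4-hydroxylase alpha chains.

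The arrays of the 2 groups differed as a whole, and this bears on each value below. CD109 itself had a log2 signal of 3.64, 3.45 and 3.62 in clones 26, 32 and 180 and of 7.57, 7.75 and 8.13 in parental samples 5, 2 and 6. The background of an array, for which the 95th percentile of its probe sets for olfactory receptors was used, lay between 5.51 and 5.71 in CD109-KO arrays and between 4.07 and 4.20 in parental arrays. It was exceeded by 7838 to 8674 genes per CD109-KO array, against 12105 to 12297 genes per parental array. The range of signals was narrower in CD109-KO arrays, with an interquartile range over gene probe sets of 2.44 to 2.49, against 3.25 to 3.51 in parental arrays. These differences between the arrays and the genotype cannot be told apart, since every CD109-KO array had the higher background and the narrower range. Their part in the results below was not tested. All 8 measured squamous epithelial markers fell in CD109-KO arrays, where CDH1, EPCAM and DSG3 lay under the background in all 3 arrays and EGFR in 2 of 3, while KRT5, KRT14 and SFN stayed above it. Fewer cells with a transcript and less of it per cell cannot be told apart in these bulk samples. Of 11 fibroblast markers 9 rose, led by PRRX1 (log2 fold change 7.81) and VIM (6.69), while LUM fell (at least 1.53-fold lower) and FAP (0.52) did not pass. Their summed linear signal lay between 6798 and 7314 in CD109-KO arrays and between 295 and 341 in parental arrays. PRRX1 and VIM made up most of the sum in CD109-KO arrays, with mean log2 signals of 11.96 and 11.17, against 8.76 for TWIST2, the next highest. Of the 11 fibroblast markers 7 exceeded the background in each of the 3 clones, among them PDGFRB (2.42), THY1 (2.28) and DCN (1.62), and PDGFRA, COL6A3 and FAP were under it on every array of both groups. Over the other scalings 2 to 10 of the list were higher. Of 6 endothelial markers 3 rose (VWF by 2.17), and of 5 blood cell markers 3 rose and CD68 fell by 4.16. Over the other scalings 0 to 6 endothelial and 0 to 4 blood cell markers were higher, and none of either list after centring on antigenomic controls. The summed signal of the endothelial list was 268 to 294 in CD109-KO arrays and 128 to 143 in parental arrays. That of the blood cell list was 235 to 256 in CD109-KO arrays and 757 to 1180 in parental arrays. CD68, with a mean log2 signal of 9.79 in parental arrays, made up most of the parental blood cell sum. PECAM1, KDR, TEK and PTPRC were under the background on all 6 arrays. The part of these cell type markers in the results on the enzymes was not tested.

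The 250 bases before the annotated start are shown for 4 genes, the lysyl oxidases LOX and LOXL1 and the hydroxylases PLOD2 and P4HA1, since these changed most within their families and 3 of them are known HIF targets. Sequences are those of RefSeq on GRCh38.p14, read 5′ to 3′ on the strand of the gene, and capitals mark the core of the hypoxia response element, ACGTG or GCGTG on either strand.
LOX, chr5:122078260-122078509, minus strand: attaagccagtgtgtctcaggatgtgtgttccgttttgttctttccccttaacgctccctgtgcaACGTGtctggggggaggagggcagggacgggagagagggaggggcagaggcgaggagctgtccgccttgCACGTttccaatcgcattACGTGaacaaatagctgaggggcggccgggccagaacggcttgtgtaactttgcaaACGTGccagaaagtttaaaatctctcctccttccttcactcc
LOXL1, chr15:73926212-73926461, plus strand: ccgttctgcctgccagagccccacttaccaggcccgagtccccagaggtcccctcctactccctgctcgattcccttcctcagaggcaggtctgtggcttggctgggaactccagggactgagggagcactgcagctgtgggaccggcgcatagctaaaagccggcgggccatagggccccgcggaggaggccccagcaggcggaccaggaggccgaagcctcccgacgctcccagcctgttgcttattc
PLOD2, chr3:146161185-146161434, minus strand: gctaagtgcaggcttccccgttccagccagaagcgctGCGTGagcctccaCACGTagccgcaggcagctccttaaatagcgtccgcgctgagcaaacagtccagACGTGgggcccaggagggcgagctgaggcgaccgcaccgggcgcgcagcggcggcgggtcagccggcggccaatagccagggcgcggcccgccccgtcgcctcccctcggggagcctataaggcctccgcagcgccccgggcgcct
P4HA1, chr10:73096867-73097116, minus strand: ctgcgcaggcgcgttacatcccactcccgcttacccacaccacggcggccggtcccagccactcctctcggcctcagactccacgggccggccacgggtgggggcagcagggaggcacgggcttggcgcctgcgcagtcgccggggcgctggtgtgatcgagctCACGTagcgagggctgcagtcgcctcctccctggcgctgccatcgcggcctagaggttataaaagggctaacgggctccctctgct

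The core occurred 4 times in the LOX window, 3 times in that of PLOD2 and 1 time in that of P4HA1, none of them overlapping, and not at all in that of LOXL1. Over all 9 genes it was found in 4 windows, the fourth being PLOD1 with 2 copies of GCGTG. Of 27305 gene windows of this length 43.1% held at least 1 copy and 7.84% held 3 or more, so that a single copy is common. The window of LOXL4 held 6 GC boxes (GGGCGG on either strand, at least 3 copies in 13.9% of all windows) and 86.4% G and C. The windows of LOXL3 and P4HA2, neither of which held a copy, lie inside the annotated gene, after an earlier start. A match is a description of the letters and shows no binding. Genes with the core moved both ways: LOX was higher in CD109-KO cells, and PLOD1, PLOD2 and P4HA1 were lower.

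LOXL1, which crosslinks collagen and in mice is needed to renew elastic fibres, showed the largest rise of the 9 enzymes. It is annotated on GRCh38 at chr15:73926462-73952136. Clones 26, 32 and 180 gave log2 signals of 7.80, 8.50 and 8.69, against 3.16, 2.67 and 3.43 for parental samples 5, 2 and 6. Every clone was far above every parental sample, which all lay under the background. CD109-KO arrays averaged 8.33 ± 0.47 and parental arrays 3.09 ± 0.39 (SD, n = 3 each), and the log2 fold change was 5.24 (SE 0.29, limma adjusted p = 1.24e-07). Against the parental background, LOXL1 was at least 18.3-fold higher on the deposited scale. For such a bound, each dim array entered with its background, or with the gene's signal where that was higher. These values were averaged and set against the mean of the brighter arrays. Every such bound here takes the deposited scale as given and is no lower limit under other scalings. After centring on the olfactory receptor background the log2 fold change of LOXL1 was 3.79, a smaller change than this bound. Over the 6 arrays, the genes nearest to it after each gene was centred on its own mean were TMEM108, COL1A2 (a chain of type I collagen) and FGF7 (a growth factor of mesenchymal cells), with root mean square differences of 0.23, 0.32 and 0.34 on the log2 scale.

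LOX, the founding enzyme of the family, is annotated at chr5:122063195-122078259. Its log2 signals were 6.60, 6.53 and 6.78 in clones 26, 32 and 180, against 4.02, 4.37 and 3.37 in parental samples 5, 2 and 6. The clones agreed within 0.13 (SD), the parental samples were spread by 0.51 (SD), and the groups lay far apart. LOX was 6.58-fold higher (log2 fold change 2.72, SE 0.27, limma adjusted p = 6.62e-06). It exceeded the background in 3 of 3 CD109-KO arrays and in 1 of 3 parental arrays, so that the parental level is close to the limit of detection. Both LOX and LOXL1 were also called in each of the 18 other settings tried, with log2 fold changes between 1.27 and 4.81 for LOX and between 3.79 and 7.33 for LOXL1.

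LOXL3 and LOXL4, which carry scavenger receptor domains before the catalytic domain, rose less. LOXL3, at chr2:74532258-74555702, had a log2 signal of 6.59, 6.58 and 7.15 in clones 26, 32 and 180 and of 5.27, 5.06 and 5.20 in parental samples 5, 2 and 6, a log2 fold change of 1.60 (SE 0.24, limma adjusted p = 9.72e-05). LOXL4, at chr10:98247690-98268194, had 5.72, 5.28 and 6.17 in the clones and 4.39, 3.88 and 4.22 in the parental samples, a log2 fold change of 1.56 (SE 0.27, limma adjusted p = 0.000305). The groups did not overlap in either gene. Both rises were of the size of the rise in background: over the background of its own array, LOXL3 stood 1.18 higher for CD109-KO clones and 1.04 higher for parental samples, and LOXL4 stood 0.13 higher for CD109-KO clones and 0.03 higher for parental samples. LOXL4 exceeded it on 2 of 3 arrays of each group. Centring the arrays on this background was added once the data had been examined, and under it neither was called (log2 fold changes 0.15 and 0.11). By the same measure LOX was at 1.05 for CD109-KO clones and at -0.22 for parental samples, and LOXL1 was at 2.74 for CD109-KO clones and at -1.05 for parental samples, where 0 is the background.

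**Figure D1:**
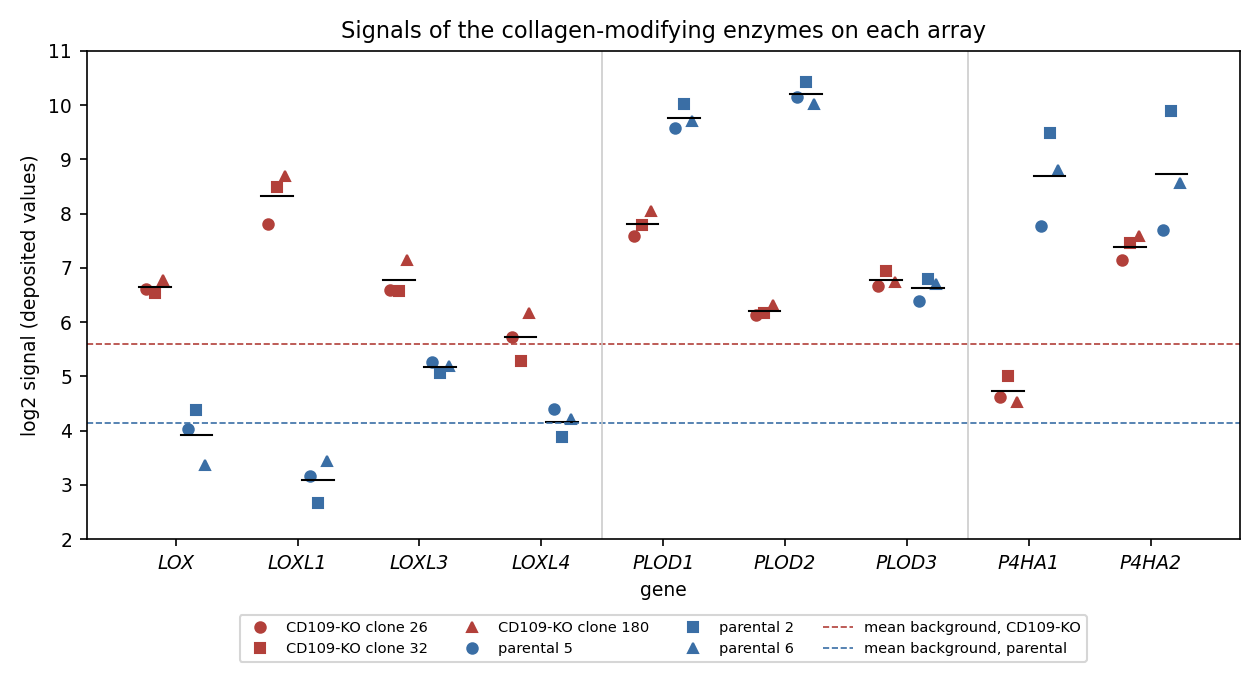
Log2 signal (vertical axis) of the 9 enzymes (horizontal axis) on each of the 6 arrays, CD109-KO clones in red left of parental samples in blue, with a black bar at each group mean and dashed lines at the mean background of each group (5.59 for the clones and 4.14 for the parental samples). The lysyl oxidases lie higher in red, PLOD1, PLOD2, P4HA1 and P4HA2 higher in blue, and only PLOD3 overlaps.

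PLOD2, the lysyl hydroxylase of the collagen telopeptides, where crosslinks form, fell most among the lysyl hydroxylases. It is annotated at chr3:146069440-146161184. Clones 26, 32 and 180 gave log2 signals of 6.13, 6.17 and 6.32, against 10.15, 10.43 and 10.02 for parental samples 5, 2 and 6. Both groups were tight (SD 0.10 for the clones and 0.21 for the parental samples), and nearly 4 log2 units separated their means. It was 15.9-fold lower in CD109-KO clones (log2 fold change -3.99, SE 0.22, limma adjusted p = 1.17e-07), and in the clones it lay only 0.62 above the background, against 6.06 in parental arrays. The genes nearest to it over the 6 arrays were MYL12B (a myosin light chain), GSTP1 (a glutathione transferase) and DDR1 (a receptor for collagen), with root mean square differences of 0.10, 0.12 and 0.12.

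PLOD1, which hydroxylates lysines of the collagen helix, is annotated at chr1:11934717-11975537. Its log2 signals were 7.58, 7.78 and 8.04 in clones 26, 32 and 180, against 9.58, 10.02 and 9.71 in parental samples 5, 2 and 6, with no overlap. PLOD1 was 3.92-fold lower (log2 fold change -1.97, SE 0.23, limma adjusted p = 1.98e-05), a direction that turned (0.12) once each array was centred on its genes needed by every human cell, called every-cell centring here. PLOD3, which also transfers sugars to hydroxylysine, is annotated at chr7:101205984-101217581. Its log2 signals were 6.66, 6.95 and 6.73 in the clones, against 6.38, 6.79 and 6.69 in the parental samples, and these ranges overlapped. The log2 fold change of 0.16 did not pass (95% interval -0.33 to 0.65, limma adjusted p = 0.525), and its sign depended on the scaling: it was 2.25 after every-cell centring and -1.05 after centring on antigenomic controls, both past the threshold.

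P4HA1, an alpha chain of prolyl 4-hydroxylase at chr10:73007217-73096866, had a log2 signal of 4.63, 5.00 and 4.53 in clones 26, 32 and 180 and of 7.78, 9.48 and 8.79 in parental samples 5, 2 and 6. All clones lay under the background and all parental samples far above it. The log2 fold change was -3.96 (SE 0.37, limma adjusted p = 3.82e-06), and with the clones at their background P4HA1 was at least 8.54-fold lower. That bound holds for the deposited scale only, and after every-cell centring the log2 fold change was -1.87, a smaller change. P4HA2, at chr5:132190147-132227853, encodes the other alpha chain studied here. It had 7.14, 7.45 and 7.59 in the clones and 7.70, 9.89 and 8.57 in the parental samples. The groups did not overlap, but the highest clone and the lowest parental sample were only 0.11 apart. The log2 fold change of -1.33 did not pass (SE 0.44, 95% interval -2.30 to -0.36, limma adjusted p = 0.0163). Without parental replicate 5 it was -1.84 and passed (limma adjusted p = 0.00177), and without parental replicate 2 it was -0.74 and did not. After every-cell centring it was 0.76 and after the repeated quantile normalization -0.57, neither of them called. It was called lower after centring on hybridization controls (-2.23), antigenomic controls (-2.54) or the olfactory receptor background (-2.78).

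**Figure D2:**
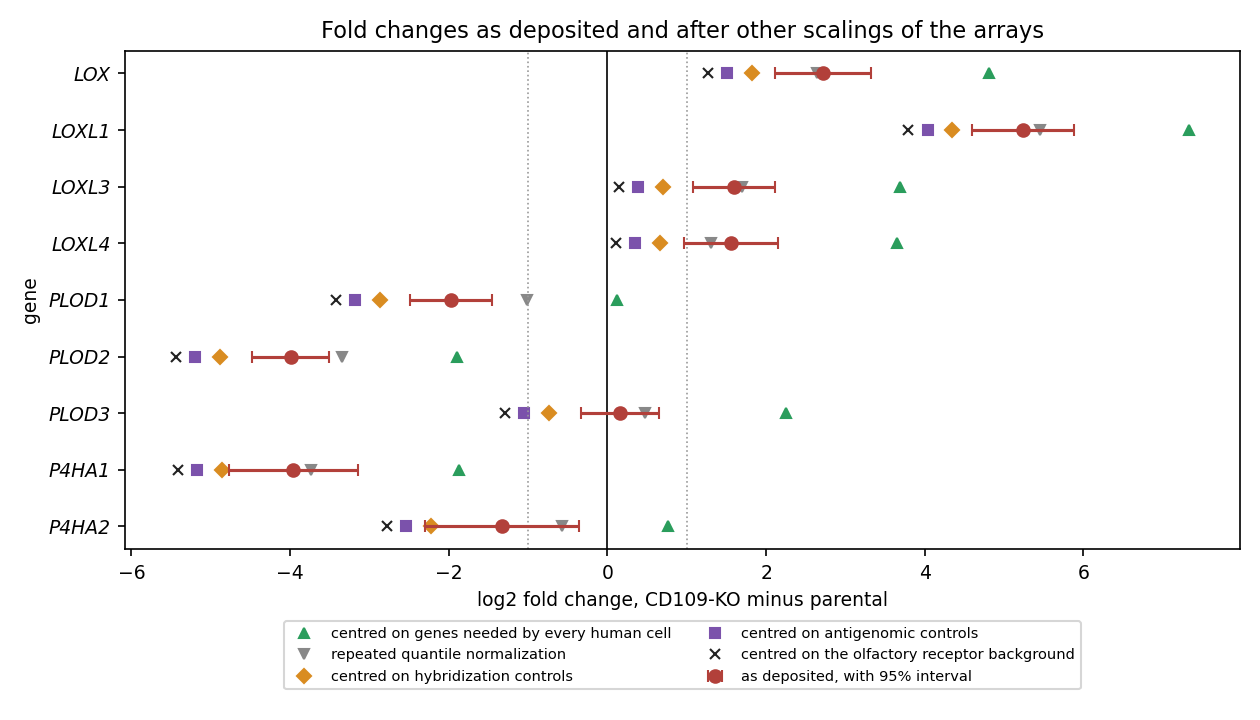
Log2 fold change of CD109-KO minus parental (horizontal axis) for the 9 enzymes (vertical axis), as deposited with its 95% interval and after 5 other scalings of the arrays. Dotted lines mark a fold change of 2. A scaling moves every gene alike except for the quantile normalization, so that LOX and LOXL1 stay right of the dotted line and PLOD2 and P4HA1 left of it in every scaling, while LOXL3, LOXL4, PLOD1, PLOD3 and P4HA2 do not keep one side.

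A difference between 2 genes on the same array does not depend on centring the arrays by a constant, and it was therefore compared for the 10 pairs within a family. A quantile normalization or a narrower range of an array can still change it. The level of one probe set says nothing against that of another, so that only the shift between groups is read. In 9 of the 10 pairs the 3 CD109-KO and 3 parental differences did not overlap, a count for which no share over other gene pairs was computed. With 3 arrays a group the exact two-sided permutation test cannot go below 0.1, and the 9 pairs reached that value (p = 0.1 each in the exact test, adjusted p = 0.111 over 10 pairs). PLOD3 shifted against PLOD2 by 4.15 on the log2 scale, and PLOD1 against PLOD2 by 2.02. The measured shifts were thus unequal among the lysyl hydroxylases, with PLOD2 only 0.62 above the background in the clones. P4HA2 minus P4HA1 averaged 2.67 ± 0.34 over CD109-KO clones and 0.04 ± 0.34 over parental samples (SD, n = 3 each), with P4HA1 under the background in all clones. LOXL1 was under the background in all parental samples and LOX in 2 of 3, and the measured shifts of LOXL1 of 2.52 against LOX, 3.65 against LOXL3 and 3.69 against LOXL4 therefore rest on values without a measured parental level. Only LOXL3 and LOXL4 moved by nearly the same amount (shift 0.04, exact permutation p = 0.8).

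**Figure D3:**
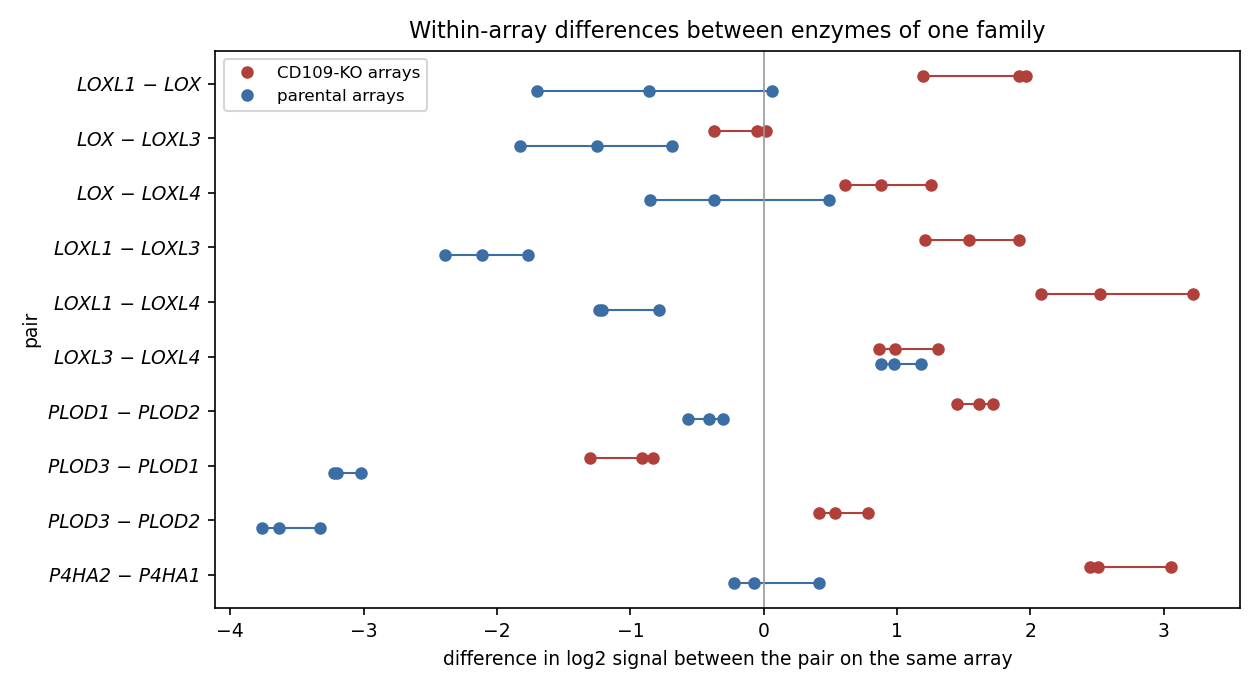
Difference in log2 signal between 2 enzymes of one family on the same array (horizontal axis) for 10 pairs (vertical axis), with CD109-KO arrays in red above parental arrays in blue and a line over the range of each group. In 9 pairs the red and blue ranges are apart, and in LOXL3 minus LOXL4 they overlap.

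The families as a whole also moved apart within the arrays. The mean log2 signal of the 4 lysyl oxidases minus that of the 5 hydroxylases was 0.25, 0.05 and 0.55 in clones 26, 32 and 180, set against -4.11, -5.33 and -4.71 in parental samples 5, 2 and 6. This quantity was chosen after the values were seen and is given without a test. It shifted by 5.00 between the groups, whatever the scaling by a constant, and it includes LOXL1 and P4HA1, each under the background in one group. By parental level, the lysyl oxidases stood at percentiles 15.3 to 46.1 of all genes, PLOD3 at 69.1 and the other hydroxylases at 92.4 to 98.3. Scaling by a constant does not remove the narrower range of the CD109-KO arrays, and the part of that range in this shift was not tested.

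Samples of one group also differed among themselves. Clone 180 had the highest signal of the 3 clones in 7 of the 9 enzymes, and clone 26 the lowest in 5. Clone 180 also had the highest background (5.71, against 5.54 and 5.51 in clones 26 and 32). Over the background of its own array, it was highest in LOX, LOXL3, LOXL4 and PLOD1, and clone 32 was highest in the other enzymes. Among the parental samples, replicate 2 had the highest signal in 6 enzymes. The parental spread was widest for P4HA2 and P4HA1, whose SD of 1.10 and 0.85 stood at percentiles 98.8 and 96.7 of all genes, where the median SD was 0.30. Parental sample 2 exceeded parental sample 5 by 2.19 for P4HA2 and 1.70 for P4HA1. In 4 of the 5 hydroxylases, and in no lysyl oxidase, parental 2 was highest and parental 5 lowest. The same order held for 11 of 17 HIF genes and HIF target genes and for 17.9% of all genes. EGLN3, an oxygen-sensing prolyl hydroxylase induced by HIF, had 6.69, 9.21 and 7.46 in parental samples 5, 2 and 6, and the HIF target NDRG1 had 9.57, 11.23 and 9.84. These counts were chosen after the values were seen and were not tested.

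The partners of the hydroxylases moved both ways. Of 8 genes of the prolyl hydroxylase complexes, 4 rose and 4 fell. P4HB, the subunit that holds the alpha chains in solution, had a log2 fold change of -3.38 (limma adjusted p = 6.61e-07), and PPIB, the cyclophilin of the prolyl 3-hydroxylation complex, one of -4.16. P3H2, a prolyl 3-hydroxylase mainly of type IV collagen, fell by 3.46 and lay under the background of all clones (at least 8.66-fold lower), and CRTAP fell by 2.46. The third alpha chain gene, P4HA3, rose by 2.53. Its log2 signal was 6.52, 6.17 and 5.57 in the clones, above the background in 2 of 3, and 3.69, 3.30 and 3.68 in parental samples 5, 2 and 6, under it in all 3. P3H1, P3H3 and P3H4 rose by 1.15, 1.36 and 1.61. Of these 4 rises only that of P4HA3 was called after centring on antigenomic controls, hybridization controls or the olfactory receptor background.

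Of 12 measured genes of collagen folding, glycosylation and export, 8 fell, 2 rose and 2 did not pass, with a median log2 fold change of -1.82. The falls were largest for CALR and PDIA3, general chaperones of the endoplasmic reticulum (-3.90 and -2.73), the prolyl isomerase gene FKBP9 (-2.57) and MIA2, which takes part in the export of large cargo (-2.50). MIA2 lay under the background in all clones and was at least 1.23-fold lower. The smallest of the falls was that of SERPINH1 (-1.09). FKBP10 and FKBP7 rose by 1.85 and 1.49, and COLGALT1 (0.44) and TMEM38B (0.45) did not pass. After every-cell centring, 1 fell and 4 rose. Of 33 measured genes needed by every human cell, 23 fell and none rose (median -1.72), and 7 to 31 fell over the other scalings. All 33 exceeded the background in every parental array, and 6 of them lay under it in all 3 CD109-KO arrays. The largest falls were those of KPNB1 (-5.65), PSMB1 (-4.90), COPB1 (-4.13) and PSMA1 (-4.00), all under the background in the clones. What these falls share with those of the enzymes was not tested.

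Genes of the collagen substrates and of their processing were higher. Of 10 measured fibrillar collagen chains 8 rose, none fell and 2 did not pass (median 2.00), and COL3A1 was not analysed here. Of the 8 that rose, 7 exceeded the background in all clones. COL1A2 rose by 5.20, COL2A1 by 3.04, COL1A1 by 2.93 and COL11A2 by 2.33 (at least 3.60-fold). Of 8 genes of procollagen processing 6 rose, none fell and 2 did not pass (median 1.61). Of the 6 that rose, 5 exceeded the background in all clones, as did 3347 of the 6410 genes called higher over all genes. PCOLCE, which enhances the procollagen C-proteinase, had a log2 signal of 11.05, 11.12 and 11.18 in clones 26, 32 and 180 and of 6.67, 7.04 and 6.10 in parental samples 5, 2 and 6, a log2 fold change of 4.52 (limma adjusted p = 1.54e-07). TLL1, TLL2 and ADAMTS2, proteases that trim procollagen, rose by 2.31, 1.74 and 2.07. BMP1, the C-proteinase that also frees active LOX from its proenzyme, had a log2 fold change of 0.67 (limma adjusted p = 0.0138) and did not pass. Over the 5 other scalings the number of fibrillar chains that rose was 3 to 10 and that of processing genes 1 to 8.

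Of 12 elastic fibre genes, which include the other substrate of lysyl oxidases, 9 rose, 2 fell and 1 did not pass (median 1.75). Of the 9 that rose, 6 exceeded the background in all 3 clones. FBLN5, which tethers LOXL1 to elastin in mice, rose by 3.17 (at least 5.02-fold), and EFEMP2 and FBLN2 by 2.14 and 2.00, while FBLN1 fell by 2.35. Between 1 and 10 of these rises were called over the other scalings. The summed linear signal of the list was 1067 to 1074 in CD109-KO arrays and 1250 to 1792 in parental arrays. FBLN1 was the highest gene of the list in parental arrays (mean log2 signal 10.11). None of 7 genes of copper delivery rose, 3 fell and 4 did not pass (median -0.33). SLC31A1, the high-affinity copper importer, fell by 3.29, STEAP3, a metalloreductase, by 1.81 and SLC31A2 by 1.15. The copper pump ATP7A, which loads lysyl oxidases in the secretory pathway, had a log2 fold change of 0.18. ATP7A exceeded the background in 0 of 3 CD109-KO arrays and in 2 of 3 parental arrays, which limits how far that value can be read. After every-cell centring 1 of the 7 fell and 4 rose. Of 5 measured genes of ascorbate and iron supply 4 fell and 1 rose (median -1.90). The transferrin receptor gene TFRC fell by 5.03 (at least 8.31-fold) and FTL by 4.18. SLC11A2 was under the background in all clones (at least 1.08-fold lower), and SLC23A1, an ascorbate transporter gene, rose by 1.19, a direction that turned after centring on antigenomic controls (-0.019).

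Of 17 measured HIF genes and HIF target genes, 11 fell, 1 rose and 5 did not pass, with a median log2 fold change of -2.11. ERO1A, an oxidase of the endoplasmic reticulum, had a log2 fold change of -4.63 (at least 16.9-fold lower), the glucose transporter gene SLC2A1 one of -4.19, PDK1 one of -3.37 (at least 3.24-fold lower) and KDM3A one of -3.31 (at least 1.88-fold lower). Among the genes of HIF subunits, HIF1A had a log2 fold change of -0.25 (limma adjusted p = 0.395) and did not pass. EPAS1 fell by 2.63 (limma adjusted p = 2.94e-06) and ARNT by 1.27 (limma adjusted p = 0.000814). ANKRD37, another HIF target, rose by 1.83. Of the 4 enzymes named above as known HIF targets, PLOD2 and P4HA1 fell, P4HA2 did not pass, and LOX rose. After every-cell centring 4 genes of the list fell and 6 rose.

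**Figure D4:**
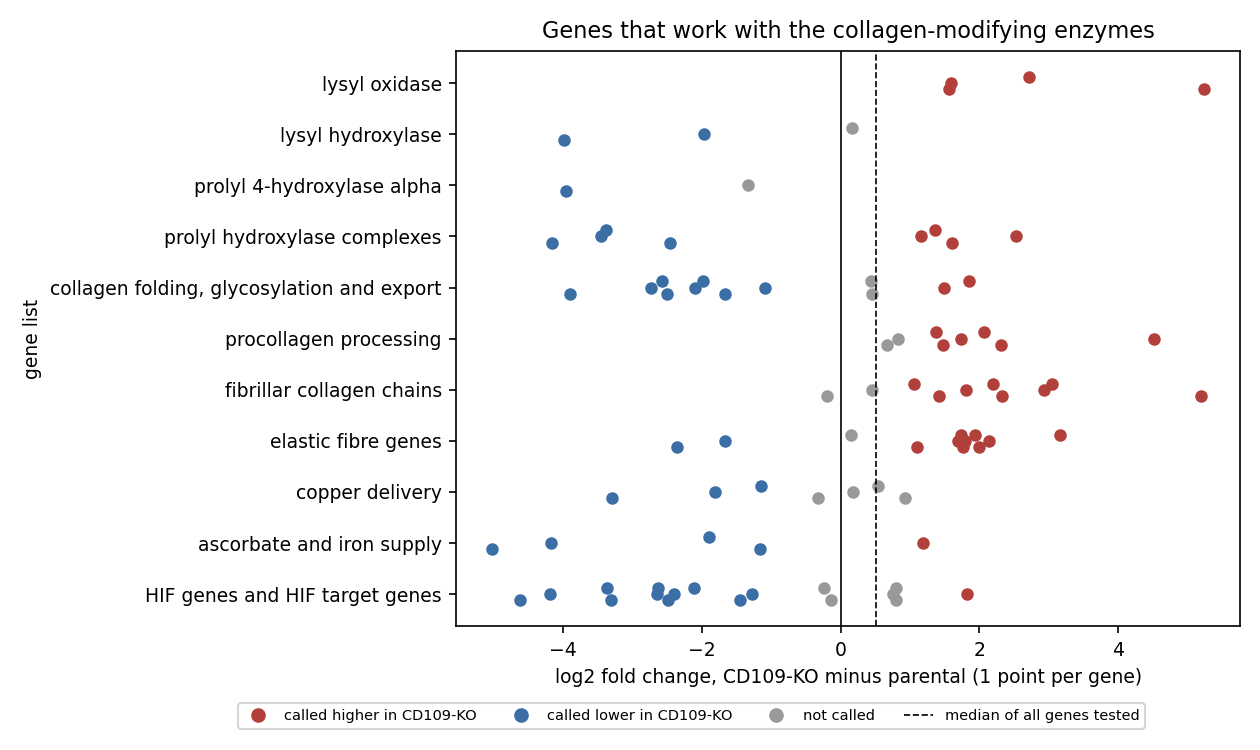
Log2 fold change of CD109-KO minus parental (horizontal axis), 1 point per gene, for the enzymes and for lists of genes that work with them (vertical axis), with genes called higher in red, called lower in blue and not called in grey. The dashed line marks the median of all genes (0.51). Lysyl oxidases, procollagen processing genes and fibrillar collagen chains lie to the right, and lysyl hydroxylases, P4HA1, folding genes and HIF targets mostly to the left.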

How the data were processed

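Total RNA from each of 3 CD109-KO clones and from each of 3 parental A431 samples was hybridized to its own Clariom S human array. The authors' deposited values are log2 signals per probe set, pre-processed, background-corrected and normalized in Affymetrix Gene Expression Console. Transcriptome Analysis Console and hg38 appear in the submitters' processing notes. For the normalization, the algorithm was not given in the sources used here. Values were used as deposited. Symbols came from the platform annotation and were checked by Entrez ID against RefSeq (GRCh38.p14), with 0 changed. Of 21448 gene probe sets 17709 had 1 symbol, 0 had several and 3739 were unnamed. The 2903 control probe sets were left out, and for 20 genes with several probe sets the one with the highest mean was used. CD109-KO minus parental was fitted with limma 3.58.1 (R 4.3.3, lmFit and eBayes) on all gene probe sets with Benjamini-Hochberg adjustment, and the study's thresholds (adjusted p 0.01, fold change 2) made the calls. The script was tested on simulated data. The number of arrays limits the precision.

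The enzymes and the gene lists were chosen with earlier results of these data known. The rule for named genes took all enzymes, up to 4 called genes of each list by size of change (of which some of the marker lists are not printed), and the 3 genes nearest to the enzymes with the largest rise and fall. BMP1, CRTAP, P3H1, P3H3, P3H4, FKBP10, FKBP7, COLGALT1, TMEM38B, SERPINH1, ATP7A, HIF1A, EPAS1, ARNT, ANKRD37, EGLN3, NDRG1, KRT5, KRT14, SFN, PDGFRA, PDGFRB, THY1, DCN, COL6A3, FAP and KDR were named outside it after their values were seen. The alternatives were limma with trend and robust priors, the methods' t-test, a repeated quantile normalization, centring on 33 genes that every human cell needs, on 23 antigenomic or 4 hybridization controls or on the olfactory receptor background, a filter on dim probe sets, other thresholds, control probe sets kept, and leaving out each array. The pairs within families had been planned with LOXL2 and are 10 without it.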

Additional observations from a re-analysis of the deposited data

How the results depend on the processing

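LOX, LOXL1, PLOD2 and P4HA1 kept their direction and their call in all 18 other settings. Leaving out each array in turn gave 4 enzymes higher every time and 3 to 4 lower, and 5906 to 6606 genes higher and 4377 to 4910 lower over all genes. Scaling mattered most. Every-cell centring moved the median of all genes by 2.09 and gave 12974 genes higher and 1374 lower, and it turned PLOD1 (0.12), P4HA2 (0.76), STEAP3 (0.28), SLC31A2 (0.94) and SLC11A2 (0.19). Antigenomic controls moved the median by -1.21 and gave 553 higher and 7504 lower, with 2 enzymes higher and 5 lower. PLOD3 (-1.05), SLC23A1 (-0.019) and TEK (-0.021) turned there. Hybridization controls (-0.90) gave 934 genes and 2 enzymes higher, with PLOD3 at -0.74. The olfactory receptor background (-1.45), chosen after the data were seen, gave 278 genes higher and 8498 lower, with 2 enzymes higher and 5 lower. PLOD3 (-1.29), SLC23A1 (-0.26), PECAM1 (-0.0081) and TEK (-0.27) turned there. The methods' t-test left 3140 genes lower and did not call LOXL4 (adjusted p = 0.0131), the filter on dim probe sets left 3704 higher, and a fold change of 4 left 1127 higher and 2978 lower, with 2 enzymes higher (LOX and LOXL1). The cause of these changes was not tested. No paired analysis was possible because the groups share no replicate numbers. Signals near or under the background (LOXL4 in both groups, LOX and LOXL1 in parental arrays, P4HA1 and PLOD2 in CD109-KO arrays) limit how far their fold changes can be read.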
